A study of Mus musculus with 3 samples.

Results

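Conventional type 2 dendritic cells (cDC2) were picked out of single-cell libraries of irradiated mouse lung by a rule on marker genes, which 316 of 19622 cells met. A cell had to be above 0 for at least 2 of the 4 markers Cd209a, Mgl2, Clec10a and Tnip3 and for the MHC class II chain gene H2-Ab1. It could be above 0 for no more than 1 of Fscn1, Ccl22, Ccr7 and Il12b, which mark mature dendritic cells, and for no more than 1 of the complement genes C1qa, C1qb and C1qc. It had to be at 0 for Xcr1 (cDC1), Chil3 (alveolar macrophages), Cd3e (T cells), Cd79a (B cells) and Epcam (epithelium). The members were thus chosen by measured values of these genes, and the levels of the genes among them are given as a description only.

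The members came from 3 libraries, each of 1 wild-type (WT) female C57BL/6J mouse whose lungs were taken 5 months after bilateral irradiation of the thorax with 13 Gy. CONV was given at a conventional dose rate, FLASH at an ultra-high dose rate, and CONV AsiDNA at the conventional rate on the day of the last of 3 daily doses of AsiDNA, 100 mg/kg on the first 2 days and 200 mg/kg on the day of irradiation. AsiDNA is a short double-stranded DNA bound to cholesterol that acts as a decoy for DNA repair. The methods give an age of 8 to 9 weeks for mice entering experiments, while the description of the series calls them 5-month animals. All 3 mice were irradiated; libraries of control mice were not analysed here. Since each condition had only 1 mouse, the conditions had no replicate and were not tested against each other. The values describe these 3 libraries, and a difference between conditions and a difference between mice cannot be told apart.

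Dendritic cells take up antigen in tissue, cut it in lysosomes, load the peptides on MHC class II and show them to T cells. The conventional lineage grows from bone marrow precursors under Flt3 signalling and splits into cDC1, which depend on Irf8 and Batf3 and present antigen of dead cells to CD8 T cells, and cDC2, which depend on Irf4 and other factors and prime CD4 T cells. In the lung, cDC2 lie below the airway epithelium, carry CD11b (Itgam) and SIRPα (Sirpa), and are known for starting type 2 and type 17 responses. Mgl2 and Clec10a encode C-type lectins that bind galactose-type sugars, Cd209a encodes a lectin related to DC-SIGN, and Tnip3 encodes an inhibitor of NF-κB signalling.

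Each deposited value was converted back to a whole number, called the adjusted count here. The cDC2 cells held a median of 4380 (CONV), 4308.5 (CONV AsiDNA) and 4282.5 (FLASH) adjusted counts, with ranges of 3790 to 5953, 3688 to 5584 and 3558 to 5270, and a median of 1303, 1399 and 1376 genes above 0. The leukocyte gene Ptprc (CD45) was above 0 in 93.2%, 95.1% and 95.4% of them. Levels are given as adjusted CPM, which is adjusted counts per 1000000 of the summed cDC2 cells of a library, from sums of 192526, 704992 and 461030. For shares of cells above 0 the 95% interval in brackets is exact (Clopper-Pearson) and covers only how cells were sampled. No cell barcode was shared between libraries among the cDC2 cells.

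Some values stood apart by library in ways that touch the results on genes below. Fth1, the heavy chain of ferritin, which every cell uses to store iron, was above 0 in 2.27% of the CONV cDC2 cells against 81.1% in CONV AsiDNA and 92.6% in FLASH. Ftl1, the light chain, was above 0 in 2.27%, 58.5% and 64.8%. In cDC1 cells of the same libraries, the share above 0 for Fth1 was 0%, 14.1% and 53%. The non-coding RNA gene Gm42418, at 10695 and 15857 adjusted CPM in the CONV and CONV AsiDNA cells, was listed at 0 in all FLASH cDC2 cells. The median mitochondrial share of a cDC2 cell was 0.0439%, 0% and 0.0337% in the same order. The sources used here do not give how the authors adjusted the values, so a value at or near 0 in 1 library was not taken as absence of the transcript.

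Among the 4 markers, Cd209a was closest to the rule's cells. It was above 0 in 47 cells of the whole CONV library, 206 of CONV AsiDNA and 152 of FLASH, and 78.7%, 74.3% and 65.8% of these were cDC2 cells. Among the members it was above 0 in 84.1% (95% interval 69.9 to 93.4), 93.3% (88.3 to 96.6) and 92.6% (85.9 to 96.7), with a median of 5, 10.5 and 7 adjusted counts per cell. The gene lies at chr8:3743397-3748984 on the minus strand of GRCm38. Most cells with the other markers lay outside the rule.

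Mgl2 was above 0 in 70.5%, 82.9% and 78.7% of the members of CONV, CONV AsiDNA and FLASH, but the members made up only 11.3%, 30.6% and 25.2% of the cells with Mgl2. For Tnip3 the members' shares were 81.8%, 89.0% and 84.3%, and for Clec10a 65.9%, 56.1% and 56.5%. Clec10a was the weakest of the 4, with a median of 1 adjusted count per cell in every library against 9.5 to 10 for Tnip3 and 12.5 to 15 for Mgl2. Mgl2 (chr11:70130329-70137550) and Clec10a (chr11:70156197-70170834) are neighbours on the plus strand with similar sequence. Of 1449 runs of 50 bases at the 3′ ends of the annotated Clec10a transcripts, 226 also occur in an Mgl2 transcript, so the split of counts between this pair is uncertain.

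All 4 markers were above 0 in 112 members, exactly 3 in 141 and exactly 2 in 63. The commonest pattern after all 4 was Cd209a with Mgl2 and Tnip3, in 111 cells, and the commonest pair was Cd209a with Clec10a, in 32. At the edge of the rule, 72 further cells had only 1 of the 4 markers and met every other condition, and 4 members had 1 C1q gene above 0. Of all 886 cells with at least 2 markers, 422 were kept out by the C1q condition alone, 75 by Epcam alone, 13 by H2-Ab1 at 0, 11 by Xcr1 and 7 by the mature dendritic cell genes.

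The label was checked against genes that the rule did not use, with the limit that every gene of a chosen cell is tied to the choice. For comparison, 3 other kinds of cells outside the rule were gated on H2-Ab1 and their own genes, each without Chil3, Cd3e, Cd79a and Epcam. They were cDC1 (at least 2 of Xcr1, Clec9a, Cadm1 and Itgae, with Xcr1 or Clec9a among them), mature dendritic cells (at least 2 of Fscn1, Ccl22, Ccr7 and Il12b) and C1q macrophages (at least 2 of the C1q genes), so those genes are fixed there by the gate. CD11b (Itgam) was above 0 in 61.4%, 67.7% and 63.9% of the cDC2 cells of CONV, CONV AsiDNA and FLASH, against 0%, 1.01% and 3.03% of the cDC1 cells, which had a median depth of 4797, 4528 and 4498.5 adjusted counts. Irf4, a transcription factor that cDC2 depend on, was above 0 in 54.5%, 56.7% and 41.7% of cDC2 cells and in 2.56%, 1.01% and 1.52% of cDC1 cells. Cbfa2t3, a transcriptional corepressor of dendritic cell precursors, was above 0 in 75.0%, 87.2% and 92.6%. Flt3, the receptor of the lineage's growth factor, was above 0 in 56.8%, 61.0% and 50.0% of cDC2 cells against 0.773%, 1.54% and 0.709% of the C1q macrophages. Itgam and Irf4 thus set the members apart from cDC1 in each library, and Flt3 from C1q macrophages.

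Some defining genes of cDC2 were low in the members of 1 or more libraries. SIRPα (Sirpa) was above 0 in only 1 of 44 CONV cells and 3 of 108 FLASH cells, but in 45 of 164 CONV AsiDNA cells (27.4%, 20.8 to 34.9). Zbtb46, a transcription factor of conventional dendritic cells, was above 0 in 2.27% of CONV cells against 23.8% and 20.4% of CONV AsiDNA and FLASH cells. Csf1r, the receptor for M-CSF, was above 0 in 6.82%, 25.0% and 0.926%, and Cd1d1 in at most 2 cells of a library. Apart from the genes of the rule, the name cDC2 therefore rests on Itgam and Irf4 against cDC1 and on Flt3 against C1q macrophages. It does not rest on Sirpa in these libraries. Itgam was also above 0 in 65.2% of the 422 cells kept out by the C1q condition alone.

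Markers of cell types outside the myeloid lineage were mostly listed at 0. All 8 fibroblast and muscle markers, 9 of 10 T and NK cell markers, 9 of 10 epithelial markers, 7 of 10 B cell markers and 6 of 8 endothelial markers were at 0 in every cDC2 cell. Of 12 alveolar macrophage markers, 9 were at 0 in every cell, among them Marco, Siglecf, Ear1 and Fabp4, while Ear2, a ribonuclease gene, was above 0 in 9.09%, 38.4% and 29.6%. Markers of monocytes and of cDC1 were less often at 0. Of 12 monocyte markers 2 were at 0 in every cell, and the list summed to 1688, 2035 and 1755 adjusted CPM. Nr4a1, which the immediate early genes also hold, made up most of that sum, at 1091, 1211 and 935. Ms4a4c, a membrane protein of monocytes, was above 0 in 36.4%, 48.8% and 40.7%, while Lyz2, lysozyme of macrophages and monocytes, was above 0 in 1, 2 and 1 cells. Of 10 interstitial macrophage markers 5 were at 0 in every cell, Apoe among them. Of the neutrophil markers, only Il1r2, a decoy receptor for interleukin 1, was present, at 384, 169 and 161 adjusted CPM. The cDC1 gene Clec9a was above 0 in 4.63% to 6.82% of members against 87.9% to 97.4% of cDC1 cells. Of the 12 cDC1 markers only Snx22 and Gcsam were at 0 in every cell, and Wdfy4, which cDC1 need to present antigen of dead cells, was above 0 in 72.7%, 64.6% and 74.1% of the members. The cDC1 list summed to 1371, 1170 and 1894 adjusted CPM, and of the 10 pDC markers 0 were at 0 in every library.

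The members made up 44 of 6372 CONV cells (0.691%, 0.502 to 0.926), 164 of 6983 CONV AsiDNA cells (2.35%, 2.01 to 2.73) and 108 of 6267 FLASH cells (1.72%, 1.42 to 2.08). The CONV share was the lowest, and its interval lay below both others. The share was 3.40 times as high in CONV AsiDNA as in CONV and 2.50 times as high in FLASH, while the intervals of CONV AsiDNA and FLASH overlapped, at a ratio of 1.36. Among cells with Ptprc above 0 the shares were 0.948%, 3.31% and 2.46%, so the order held among leukocytes. Without the condition on C1q genes all shares rose, to 2.56% (2.18 to 2.98), 5.01% (4.51 to 5.55) and 3.59% (3.14 to 4.08). This condition alone had kept out 119, 186 and 117 cells, so CONV gained most in proportion, while CONV AsiDNA gained the most cells. The ratios to CONV came down to 1.96 for CONV AsiDNA and 1.40 for FLASH. Cell numbers per lung were not measured, so a lower share cannot be told apart from a higher number of other cells in the suspension.

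**Figure D1:**
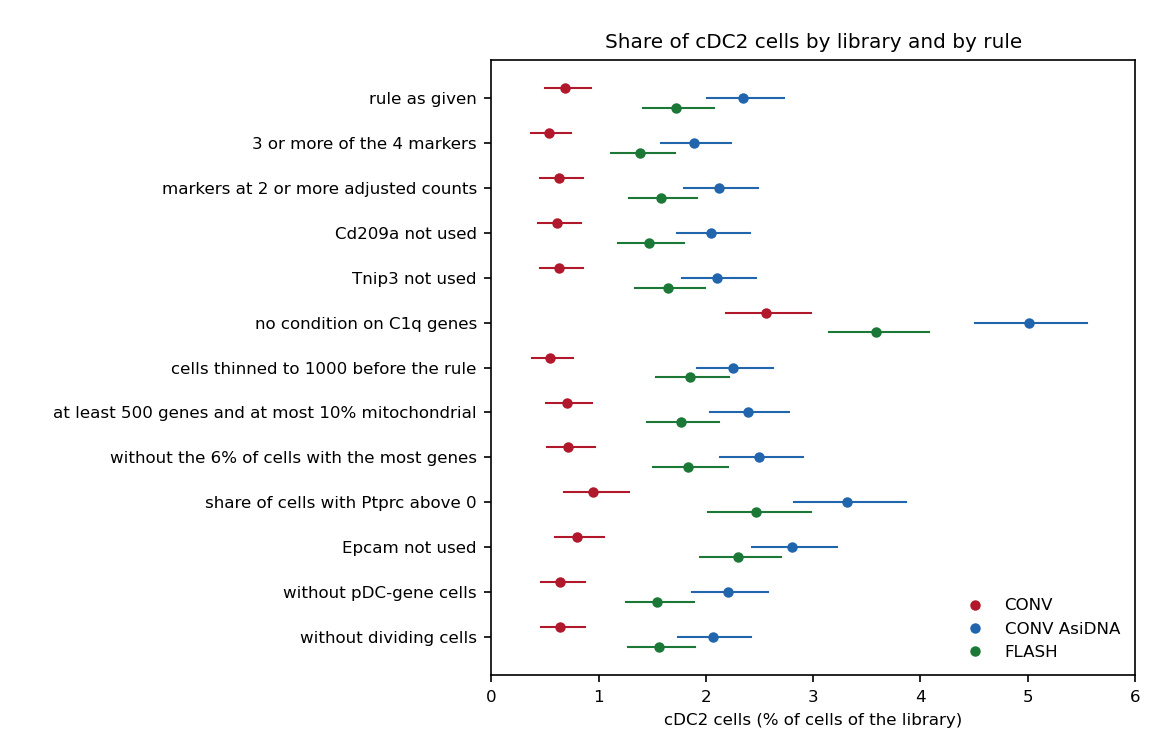
Share of cDC2 cells in each library (x axis, % of the cells of the library) under the rule as given and under 12 other settings (rows); points are shares and lines are exact 95% intervals over cells. The CONV share lay below the other libraries in every row, from 0.534% to 2.56%.

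Set beside other antigen-presenting cells of the same libraries, cDC2 differed most from macrophages. C1q macrophages made up 6.09%, 5.57% and 4.50% of the 3 libraries. Of cDC2 and C1q macrophages together, cDC2 were 10.2% (7.50 to 13.4) in CONV but 29.7% (25.9 to 33.7) and 27.7% (23.3 to 32.4) after CONV AsiDNA and FLASH. Against the other dendritic cells the ratio moved less. Of cDC2 and cDC1 together, cDC2 were 53% (41.7 to 64.1), 62.4% (56.2 to 68.2) and 62.1% (54.4 to 69.3), with overlapping intervals. Of cDC2 and mature dendritic cells together, they were 73.3% (60.3 to 83.9), 84.5% (78.7 to 89.3) and 87.1% (79.9 to 92.4). The cDC1 cells themselves were 39, 99 and 66 cells, or 0.612%, 1.42% and 1.05% of their libraries, in the same order as the cDC2 cells.

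Some genes outside the rule were shared with these neighbours and others were not. Il1rl1, the receptor for interleukin 33, was above 0 in 29.5%, 47.6% and 53.7% of cDC2 cells, against 0%, 0% and 1.52% of cDC1 cells and 4.90%, 7.46% and 7.09% of C1q macrophages. Ccl17, a chemokine that draws T cells through CCR4, was shared by dendritic cells, at 59.1%, 48.2% and 66.7% of cDC2, 59.0%, 49.5% and 50.0% of cDC1 and 5.41%, 0.514% and 0% of C1q macrophages. Il1b, a cytokine of inflammation, was shared with macrophages, at 59.1%, 70.1% and 60.2% of cDC2 and 52.6%, 54.0% and 48.2% of C1q macrophages. Ccr2, the receptor that lets cells leave the bone marrow for CCL2, was above 0 in 68.2%, 70.1% and 53.7% of cDC2 and in 92.3%, 87.9% and 89.4% of cDC1 cells.

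**Figure D2:**
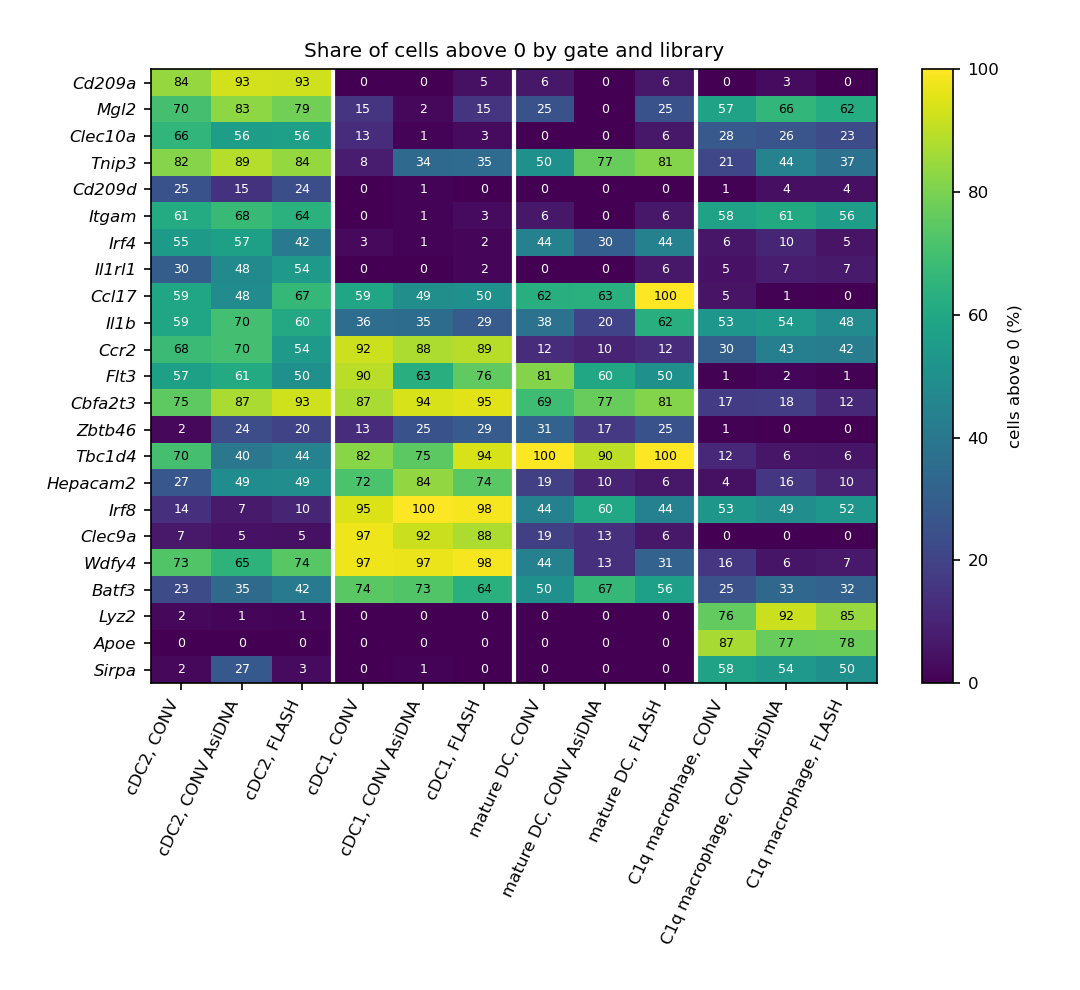
Share of cells above 0 (colour and printed value, %) for 23 genes (rows) in cDC2, cDC1, mature DC and C1q macrophage cells of each library (columns). Itgam was above 0 in 61% to 68% of cDC2 cells and at most 3% of cDC1 cells; the first 4 rows are genes of the rule, and the other gates exclude its cells.

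The members were not all alike. After the values were seen, cells with at least 2 of the 5 genes Siglech, Ccr9, Klk1, Cox6a2 and Ly6d above 0, which mark plasmacytoid dendritic cells (pDC), were set apart, as were cells with at least 2 of the 5 division genes Mki67, Top2a, Birc5, Ccnb2 and Cdk1. There were 24 cells with pDC genes (3, 10 and 11 of the CONV, CONV AsiDNA and FLASH members), 33 dividing cells (3, 20 and 10) and 259 remaining cells (38, 134 and 87). No cell was in both smaller groups.

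The 24 cells with pDC genes had met the rule through Cd209a and Clec10a, both above 0 in 100% of them, while Tnip3 was at 0 and Mgl2 was above 0 in 8.33%. Siglech and Ccr9 were above 0 in 100%, but both are among the 5 genes that chose these cells. Of genes outside that choice, Bst2 and Tcf4, the transcription factor of pDC, were above 0 in 100%, and Irf8 in 95.8%. In the remaining cells Bst2 was above 0 in 19.7%, Tcf4 in 46.3% and Irf8 in 1.93%. Itgam, Il1b and Ccl17 were at 0 in all 24. Flt3 did not set them apart, at 58.3% against 57.5% of the remaining cells. Cd209d, a lectin gene related to Cd209a, was above 0 in 91.7% of these cells against 14.3% of the remaining ones. Their median for Cd74, the chaperone of MHC class II, was 27 adjusted counts per cell against 162 in the remaining cells. These cells carried the rule's markers but the other genes of pDC, so the members hold some cells that go against the label. They were 6.82% (1.43 to 18.7), 6.10% (2.96 to 10.9) and 10.2% (5.20 to 17.5) of the members by library, and without them the shares of cDC2 were 0.643%, 2.21% and 1.55%.

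In the dividing cells and the remaining members, Itgam was above 0 in 63.6% and 71.8%, Irf4 in 57.6% and 51.7% and Il1rl1 in 54.5% and 50.2%. Of the rule's own genes, Cd209a was above 0 in 81.8% of the dividing cells and Mgl2 in 90.9%. Il1b and Ccl17 were above 0 in 39.4% each, against 74.5% and 63.3% of the remaining cells, while Ccr2 was above 0 in 84.8% against 61.0%. Dividing cells were 6.82% (1.43 to 18.7), 12.2% (7.61 to 18.2) and 9.26% (4.53 to 16.4) of the members, with overlapping intervals. Without them the shares of cDC2 were 0.643%, 2.06% and 1.56%.

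Cells just outside the rule fell into unlike groups as well. The 75 cells kept out by Epcam alone (7, 32 and 36) had at least 2 of the 4 markers by definition, with Cd209a above 0 in 82.7% and Tnip3 in 94.7%. Outside the rule, Irf4 was above 0 in 58.7% and Itgam in 54.7% of them, and Sftpc, Sftpb and Krt8 in none. Their Epcam value was 1 adjusted count in 50 of the 75 cells. Itgae (CD103) was above 0 in 34.7% and Wdfy4 in 93.3% of them, against 13.1% and 73.4% of the remaining members. The 422 cells kept out by C1q genes alone had Mgl2 above 0 in 96.9% but Cd209a in 3.08%, Flt3 in 1.18% and Lyz2 in 85.8%.

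**Figure D3:**
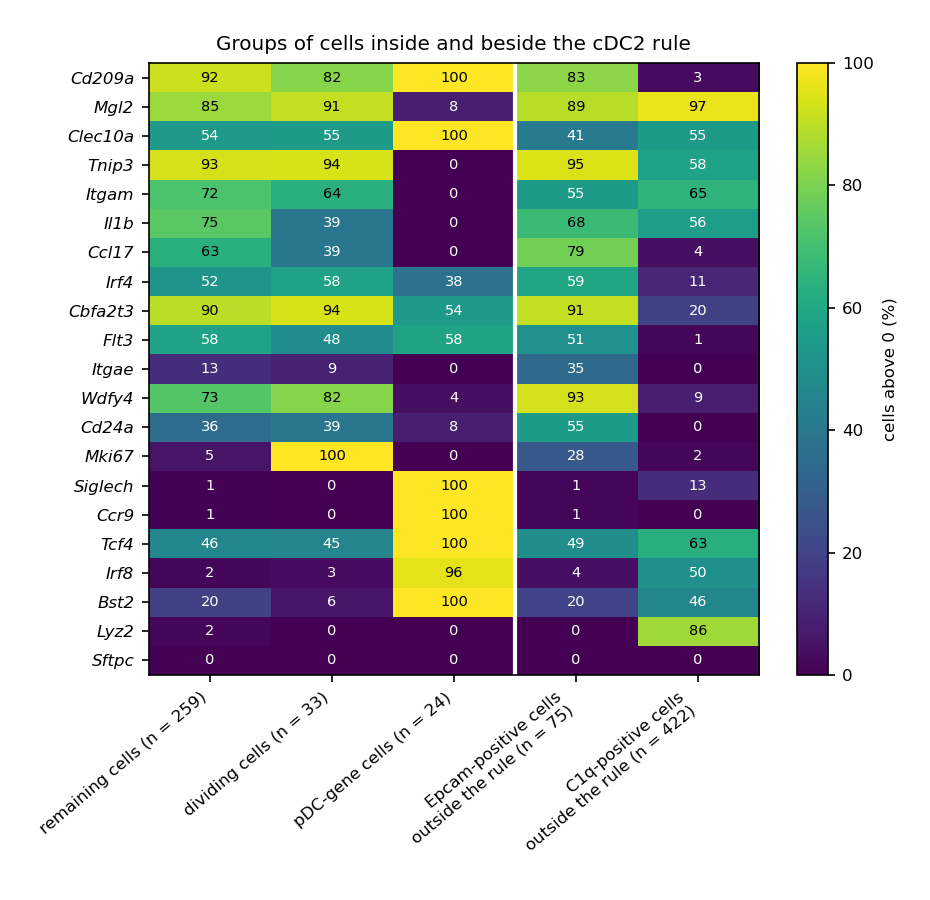
Share of cells above 0 (colour and printed value, %) for 21 genes (rows) in 3 groups of members and in 2 groups of cells that failed only the Epcam or the C1q condition (columns, all libraries pooled). The 24 cells with pDC genes had Tnip3, Itgam and Il1b at 0, and the 422 C1q-positive cells had Lyz2 above 0 in 86%.

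Differences between libraries within the cDC2 cells were taken as log2 ratios after 10 was added to each adjusted CPM, so that changes of low genes are understated. A gene was compared if its mean over the libraries was at least 50 adjusted CPM and it was above 0 in at least 5 cDC2 cells, which 2283 genes met, and it counted as past 2-fold at a log2 ratio of at least 1 either way. Between CONV and CONV AsiDNA 171 genes were past 2-fold (7.49% of the genes compared), 58 higher in CONV (2.54%) and 113 lower (4.95%). Between CONV and FLASH there were 196 (8.59%), 88 higher in CONV (3.85%) and 108 lower (4.73%), and between CONV AsiDNA and FLASH 67 (2.93%), 39 higher in CONV AsiDNA (1.71%) and 28 lower (1.23%). The first and second of these comparisons share the CONV cells, and with 44 cells CONV is also the smallest sum. Of the genes past 2-fold, few were past it in the same direction over all other cells of the same libraries, 4 of the 58 and 2 of the 113 for CONV against CONV AsiDNA and 5 of the 88 and 1 of the 108 for CONV against FLASH. For CONV AsiDNA against FLASH these counts were 2 of the 39 and 4 of the 28.

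Part of the genes lower in CONV had the pattern of Fth1. Genes above 0 in at most 5% of the members in 1 library and in at least 20% in another, a count set after the values were seen, numbered 69, of which 51 were low in CONV alone and 14 in FLASH alone. Of these 69, 57 had a higher level in all other cells than in the members. Among the 2283 genes compared this held for 810, though the 69 also include genes under the minimum level. The 69 made up 19 of the 113 genes lower in CONV than in CONV AsiDNA and 16 of the 108 lower than in FLASH, but 1 of the 58 and 6 of the 88 genes higher in CONV. Whether the unknown adjustment of the values had a part in them was not tested. Markers of other dendritic cells and of alveolar macrophages moved with the libraries as well. The 10 pDC markers summed to 966, 1037 and 1920 adjusted CPM in CONV, CONV AsiDNA and FLASH, and 3 of the 6 compared were past 2-fold lower in CONV in each comparison, beside 4.95% and 4.73% of all genes. Of these 3, Klk1 and Ly6d were listed at 0 in CONV and Cox6a2 was above 0 in 1 cell, and without the genes listed at 0 the median ratio to CONV AsiDNA was 0.30 in place of -1.46 and that to FLASH -0.55 in place of -1.94. The 12 mature dendritic cell markers summed to 540, 332 and 239, and all 3 compared were past 2-fold higher in CONV than in FLASH, beside 3.85% of all genes. The 12 alveolar macrophage markers summed to 280, 736 and 432. Of the 3 compared, 2 were past 2-fold lower and 1 higher in CONV than in CONV AsiDNA, beside 4.95% and 2.54% of all genes. Against FLASH 1 was lower and 1 higher, beside 4.73% and 3.85%. The mannose receptor gene Mrc1 was at 57.1, 241 and 8.68 adjusted CPM. Their part in the results on genes was not tested. Without the cells with pDC genes, 175 genes were past 2-fold between CONV and CONV AsiDNA, 147 of them among the 171, and 206 between CONV and FLASH, 157 of them among the 196.

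Genes that set 1 library apart were ranked among those above 0 in at least 5 cDC2 cells of every library and in at least 20% of the cells of the highest. The gene farthest above both other libraries in CONV was Rgs1 (chr1:144242296-144249242), a regulator of G-protein signalling that damps chemokine receptors. Its adjusted CPM was 1382 in CONV against 311 and 202 in CONV AsiDNA and FLASH, with log2 ratios of 2.12 and 2.72, and above 0 in 70.5% (54.8 to 83.2), 25.6% (19.1 to 33.0) and 19.4% (12.5 to 28.2) of the cells. Its interval in CONV did not meet the others, also with each cell thinned to 1000 adjusted counts, at 59.1%, 14.0% and 9.26%. The direction was found in other cells too, with log2 ratios of 0.96 and 1.35 over all other cells, 1.16 and 0.90 in cDC1 cells and 1.01 and 0.88 in C1q macrophages. In mature dendritic cells Rgs1 was high in every library, at 2606, 2796 and 2325 adjusted CPM.

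With these limits 25 genes were at least 2-fold above both other libraries in CONV, and the 9 after Rgs1 were lower in level. Plscr1, a phospholipid scramblase that interferon induces, was at 255, 97.9 and 52.1 adjusted CPM in CONV, CONV AsiDNA and FLASH (log2 ratios 1.29 and 2.09). Dusp2, a phosphatase of MAP kinases, was at 171, 63.8 and 47.7 (1.30 and 1.65), and Elovl5, an elongase of polyunsaturated fatty acids, at 114, 45.4 and 30.4 (1.17 and 1.62). Ifitm6, of the interferon-induced transmembrane family, whose members are similar in sequence, was at 239, 59.6 and 86.8 (1.84 and 1.36), and it went the other way over all other cells, at -1.43 and -1.84. Cirbp, a cold-inducible RNA-binding protein, was at 114, 28.4 and 30.4 (1.70 and 1.62), and it was higher in CONV over all other cells as well, at 1.21 and 1.05. The same direction was found for Cirbp in cDC1 cells, at 2.65 and 2.83, and in C1q macrophages, at 2.37 and 1.52. Limd2, Rogdi, Nsrp1 and 5430427O19Rik completed the 10, at 98.7 to 182 in CONV and 28.2 to 73.7 in the other libraries.

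With the same limits on cells, 33 genes were at least 2-fold below both other libraries in CONV. The limits leave out genes such as Fth1 that were above 0 in fewer than 5 CONV cells. Cd44 (chr2:102811141-102901665), the receptor for hyaluronan, was at 125 adjusted CPM in CONV against 420 and 423 in CONV AsiDNA and FLASH, with log2 ratios of -1.67 and -1.68, and above 0 in 20.5% (9.80 to 35.3), 64.6% (56.8 to 71.9) and 71.3% (61.8 to 79.6). Itgb2 (chr10:77530252-77565708), the β2 integrin chain that pairs with Itgam and Itgax, was at 72.7, 240 and 230, with log2 ratios of -1.59 and -1.54, and above 0 in 15.9% (6.64 to 30.1), 58.5% (50.6 to 66.2) and 57.4% (47.5 to 66.9). Both went the same way in cDC1 cells, at -2.66 and -2.56 for Cd44 and -1.64 and -1.45 for Itgb2. In C1q macrophages the ratios were below 0 but within 2-fold, at -0.75 and -0.46 for Cd44 and -0.17 and -0.08 for Itgb2. Over all other cells they were above 0, at 0.04 and 0.02 for Cd44 and 0.37 and 0.57 for Itgb2. Thinned to 1000 adjusted counts per cell, the shares for Cd44 were 13.6%, 29.3% and 26.9%, and the intervals overlapped. For Itgb2 the thinned shares were 2.27%, 20.1% and 15.7%, and the CONV interval overlapped that of FLASH but not that of CONV AsiDNA.

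The α chains that pair with Itgb2 stayed within 2-fold. Itgam was at 400, 365 and 421 adjusted CPM. Itgax was at 265, 336 and 367, with log2 ratios of -0.33 and -0.45, and above 0 in 47.7%, 65.2% and 66.7%. The other genes below both were Pik3cd, the δ catalytic subunit of PI3-kinase in leukocytes (26.0, 86.5 and 88.9), Pou2f2, the transcription factor Oct-2 (57.1, 217 and 169), and Grn, the lysosomal protein progranulin (83.1, 221 and 297). With them came Dnajb11, a chaperone of the endoplasmic reticulum (26.0, 90.8 and 82.4), Smc4, a subunit of condensin (67.5, 180 and 200), and Hepacam2 (67.5, 193 and 228). Bod1l, which protects replication forks, stood at 36.4, 99.3 and 102. H2-Q7, an MHC class I gene with near-identical neighbours and so an uncertain count, was at 46.7, 129 and 143.

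With the same limits, 3 genes were at least 2-fold above both others in CONV AsiDNA and 9 below. Above were Emb, the cell surface protein embigin, at 169 adjusted CPM against 51.9 in CONV and 36.9 in FLASH, App, the amyloid precursor protein, at 62.3, 199 and 43.4, and Icam1, the ligand of β2 integrins, at 72.7, 182 and 67.2. Emb was above 0 in 15.9% (6.64 to 30.1), 51.8% (43.9 to 59.7) and 10.2% (5.20 to 17.5), so its CONV AsiDNA interval lay apart. Thinned to 1000 adjusted counts per cell, the shares were 9.09%, 15.9% and 2.78%, and the intervals of CONV and CONV AsiDNA overlapped. Below were Id2, a regulator that represses E proteins, at 613, 272 and 748 and above 0 in 61.4%, 42.1% and 73.1%, Fkbp5, a co-chaperone of the glucocorticoid receptor, at 171, 31.2 and 88.9, and Itgae, the αE integrin, at 109, 24.1 and 62.9. Gpr141, an orphan receptor, was at 130, 38.3 and 115, Actn1, an actin crosslinker, at 114, 18.4 and 52.1, and Pkp3, a protein of desmosomes, at 72.7, 22.7 and 56.4. Over all other cells the ratio of CONV to CONV AsiDNA for Fkbp5 was also above 0, at 1.00 against 2.14 in cDC2 cells. In cDC1 cells this ratio was 2.55 and in C1q macrophages 0.79. The ratios of CONV AsiDNA to FLASH for Fkbp5 were 0.04 and -0.81 there.

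In FLASH 13 genes were below both other libraries and 0 above, again with these limits. Ifitm2 (chr7:140954837-140955987), which restricts virus entry, was at 909, 569 and 204 adjusted CPM (CONV, CONV AsiDNA, FLASH), and above 0 in 75.0% (59.7 to 86.8), 64.0% (56.2 to 71.4) and 34.3% (25.4 to 44.0). Ccl3, an inflammatory chemokine, was at 286, 275 and 69.4. Tnfrsf1a, the first receptor for TNF, was at 88.3, 59.6 and 17.4, Lpp, a protein of cell adhesions, at 83.1, 80.9 and 26.0, and Emp1, an epithelial membrane protein, at 104, 123 and 36.9. Rpl9-ps6, which bears the name of a pseudogene of a ribosomal protein and so has an uncertain count, was at 72.7, 62.4 and 19.5. Ptgs2 (cyclooxygenase 2) was listed at 0 in FLASH, at 187 and 150 in the others, Axl, a receptor tyrosine kinase for Gas6, was listed at 0 in CONV, at 102 and 121 in the others, and Wls, which carries Wnt proteins to the surface, was listed at 0 in FLASH, at 10.4 and 68.1.

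**Figure D4:**
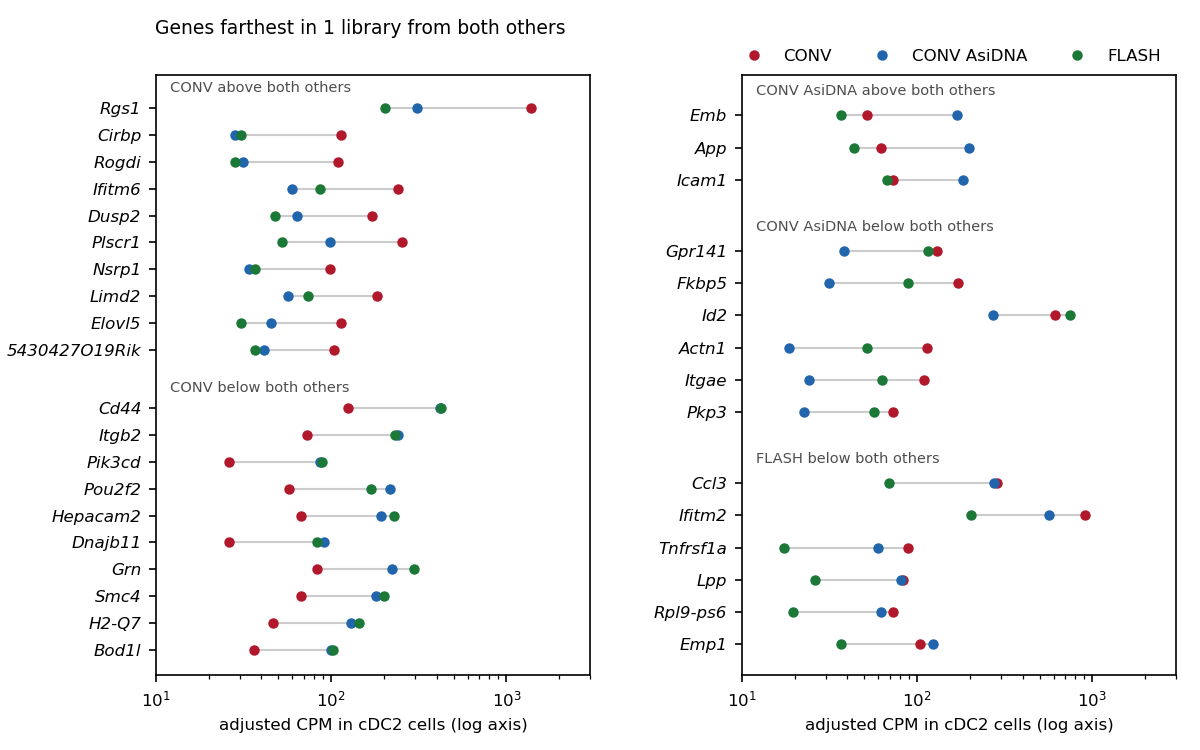
Adjusted CPM (x axis, log scale) in the summed cDC2 cells of each library for the genes farthest in 1 library from both others among those above 0 in at least 5 cells of every library, 10 each way for CONV, 3 above and 6 below for CONV AsiDNA and 6 below for FLASH. Rgs1 stood at 1382 in CONV against 311 and 202, and Cd44 at 125 against 420 and 423.

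Lists of genes with known roles were then read in the same cells. Of 23 genes of cDC2 identity, 18 were compared. Against CONV AsiDNA, 2 were past 2-fold higher in CONV and 2 lower, and against FLASH 0 either way, where over all genes 2.54% were higher and 4.95% lower than in CONV AsiDNA and 3.85% and 4.73% than in FLASH, with medians of 0.12 and 0.17 beside -0.03 and -0.01 over all genes compared. The higher ones were Tbc1d4, a regulator of glucose transporter traffic, at 945, 374 and 479 adjusted CPM, and Cd209d, at 265, 83.7 and 178. In CONV, Cd209d was above 0 in 11 cells, among them all 3 cells with pDC genes. Those 3 had a median of 11 adjusted counts per cell against 0 in the remaining CONV members, so a few cells that go against the label carry much of its level. Tbc1d4 was above 0 in 70.5% of CONV cells (54.8 to 83.2), apart from the intervals of CONV AsiDNA (39.6%, 32.1 to 47.6) and FLASH (44.4%, 34.9 to 54.3), but thinned to 1000 adjusted counts per cell (45.5%, 21.3% and 25.0%) it overlapped that of FLASH. The lower ones were the neighbouring genes Tmem176a, at 353, 797 and 425, and Tmem176b, at 447, 922 and 529, which encode intracellular cation channels of dendritic cells, and both were closer to FLASH than to CONV AsiDNA. Irf4 (291, 284 and 221), Flt3 (229, 211 and 178) and Rbpj, the factor of Notch signalling (556, 776 and 878), stayed within 2-fold.

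The genes of MHC class II present peptides to CD4 T cells. Of 12 genes, 10 were compared and 0 were past 2-fold in either comparison with CONV, beside 7.49% and 8.59% of all genes, with medians of -0.00 and -0.01. Cd74 was at 32526, 35050 and 34636 adjusted CPM, the α chain gene H2-Aa at 15520, 14204 and 13440, and Ciita, the master activator of the class, at 296, 335 and 354. H2-Oa, of the complex that restrains peptide loading, was at 400, 265 and 304, and March1, the ligase that removes MHC class II from the surface, at 213, 108 and 113, each within 2-fold. The rule demanded H2-Ab1 above 0, so a high level of this class in the members was fixed by the choice.

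Lysosomal proteases and their cofactors cut antigen for MHC class II. Of 16 genes of antigen processing and lysosome, 12 were compared. Against CONV AsiDNA 0 were past 2-fold higher in CONV and 2 lower, and against FLASH 1 higher and 3 lower, with medians of -0.29 and -0.41. Over all genes compared, 4.95% and 4.73% were past 2-fold lower in CONV. Psap, the precursor of the saposins, was at 1002, 1906 and 2243 adjusted CPM and above 0 in 45.5% (30.4 to 61.2), 87.2% (81.1 to 91.9) and 95.4% (89.5 to 98.5) of the cells. The cysteine protease Ctsz was at 223, 399 and 432 and above 0 in 31.8% (18.6 to 47.6), 77.4% (70.3 to 83.6) and 78.7% (69.8 to 86.0). Ctss, the protease that trims the invariant chain, was above 0 in 79.5% (64.7 to 90.2), 95.1% (90.6 to 97.9) and 99.1% (94.9 to 100).

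With cells thinned to 1000 adjusted counts, the shares for Psap were 36.4%, 68.9% and 79.6%, still apart, while for Ctsz (20.5%, 31.7% and 37.0%) the intervals overlapped. Psap, Ctsz, Ctss and Grn were the list's genes whose CONV interval lay below both others, while over all genes compared 32 of 2283 (1.40%) had such an interval and 15 (0.657%) one above. Lamp2, a membrane protein of lysosomes, was above 0 in 36.4%, 41.5% and 1.85% and so was low in FLASH. Ctsl was listed at 0 in CONV, at 119 and 174 in the others, and without it the medians were -0.16 and -0.34. Over all other cells Psap and Ctsz went the other way, with log2 ratios of CONV to CONV AsiDNA of 1.45 and 0.55. In cDC1 cells Ctsz was also lower in CONV, at -2.93 and -2.90, and Psap by less, at -0.50 and -0.31.

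Among the 13 lists of roles, receptors for microbes and antibodies had the lowest medians. Of 17 genes, 9 were compared, 0 were past 2-fold higher in CONV and 3 lower in each comparison, with medians of -0.80 and -0.90, where 4.95% and 4.73% of all genes compared were lower. Fcgr2b, the inhibitory Fc receptor, was at 364, 844 and 694 adjusted CPM and above 0 in 52.3% (36.7 to 67.5), 81.7% (74.9 to 87.3) and 75.0% (65.7 to 82.8). Clec4b1, a C-type lectin, was above 0 in 34.1% (20.5 to 49.9), 59.8% (51.8 to 67.3) and 61.1% (51.3 to 70.3). Fcgr3, an activating Fc receptor (10.4, 203 and 126), and Cd14, the co-receptor for lipopolysaccharide (26.0, 172 and 174), were among the genes at or under 5% of cells in CONV. Nlrp3, the sensor of an inflammasome, was higher in CONV within 2-fold, at 280, 176 and 143.

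**Figure D5:**
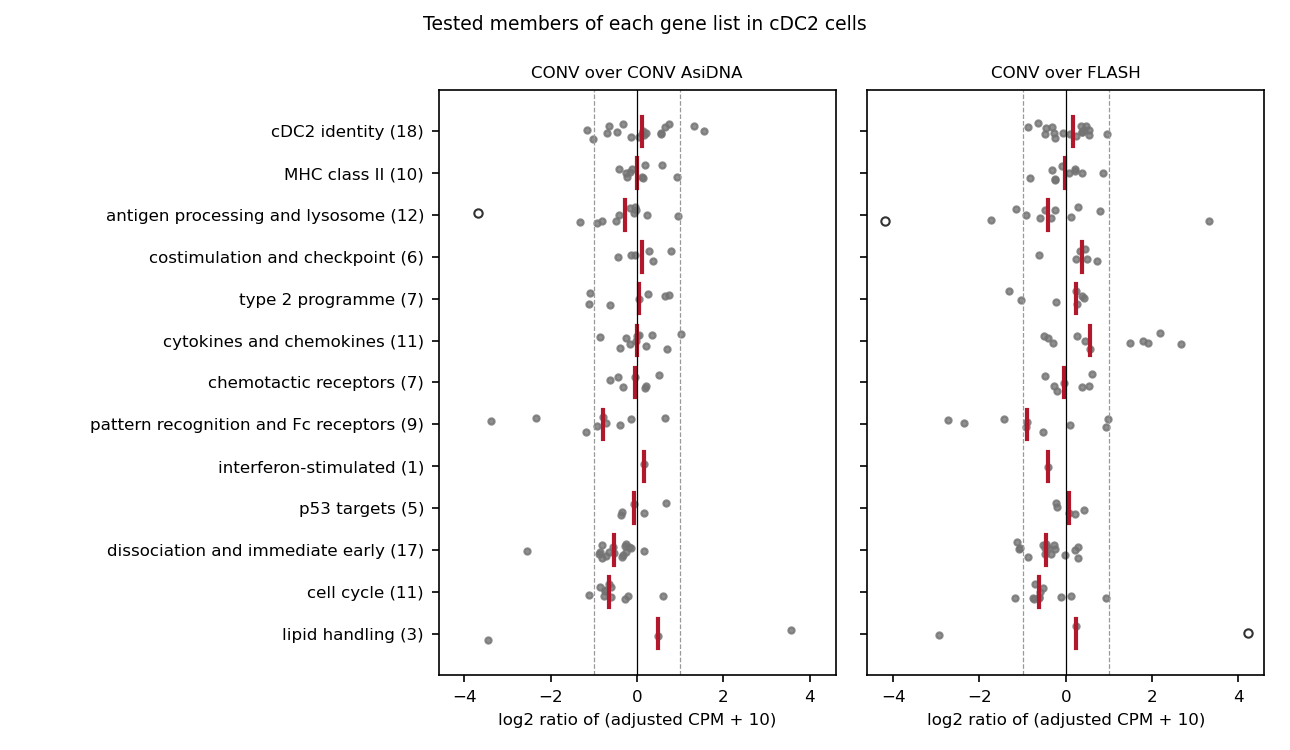
Log2 ratio of adjusted CPM plus 10 (x axis) for each gene compared in 13 lists (rows, number of genes in brackets), CONV over CONV AsiDNA (left) and CONV over FLASH (right); points are genes, open points are genes listed at 0 in 1 of the pair, red bars are medians and dashed lines mark 2-fold. The lowest medians were those of pattern recognition and Fc receptors, at -0.80 and -0.90.

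Cytokines and chemokines carry signals to T cells and other leukocytes. Of 22 cytokine and chemokine genes, 11 were compared. Against CONV AsiDNA 1 was past 2-fold higher in CONV and 0 lower, with a median of 0.00, and against FLASH 5 were higher and 0 lower, with a median of 0.56, or 1.66 with 3 or more markers required. Over all genes compared, 2.54% and 3.85% were higher in CONV, and the difference between these counts was not tested. FLASH was low beside CONV AsiDNA as well. Of the 11 genes, 4 were past 2-fold higher in CONV AsiDNA than in FLASH and 0 lower, with a median of 0.60, beside 1.71% of all genes higher. Ccl4, an inflammatory chemokine, was at 2493, 1234 and 709 adjusted CPM and above 0 in 52.3% (36.7 to 67.5), 30.5% (23.5 to 38.1) and 26.9% (18.8 to 36.2), so the CONV interval overlapped that of CONV AsiDNA and lay just above that of FLASH. Ccl2, which draws monocytes, was at 815, 641 and 282 and above 0 in 36.4%, 38.4% and 19.4%. Cxcl2 and Cxcl9, which completed the 5 with Ccl3, were above 0 in no more than 6 cells of a library, so their ratios rest on a few cells.

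The cytokines themselves were nearer to level. Il1b was at 2768, 2762 and 2291 adjusted CPM, Tnf at 353, 302 and 434 and Tgfb1 at 208, 278 and 278. Il6 was above 0 in at most 3 cells of a library, Il10 in at most 1, and Ccl5 and Areg were listed at 0 throughout. In cDC1 cells Ccl4 had the same order, with log2 ratios of CONV to CONV AsiDNA and FLASH of 0.93 and 3.28, while over all other cells it was lower in CONV, at -1.26 and -0.75.

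For the programme that drives type 2 responses, 7 of 12 genes were compared, 0 were past 2-fold higher in CONV and 2 lower in each comparison, with medians of 0.03 and 0.24, where 4.95% and 4.73% of all genes compared were lower. The lower ones were the receptors Il1rl1, at 88.3, 201 and 234 adjusted CPM, and Il13ra1, which binds interleukin 13, at 93.5, 211 and 202. Klf4, a factor that cDC2 of this programme need, was at 431, 255 and 321, and Crlf2, the receptor for TSLP, at 203, 169 and 167. Ccl17 was at 3698, 2349 and 3128. The shares above 0 for Il1rl1 had overlapping intervals in all 3 libraries, from 16.8 to 45.2 in CONV to 43.8 to 63.4 in FLASH.

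Of 12 genes of costimulation and checkpoint, 6 were compared and 0 were past 2-fold, with medians of 0.10 and 0.39. Cd86, a ligand of CD28, was at 358, 203 and 215 adjusted CPM and above 0 in 70.5% (54.8 to 83.2), 47.0% (39.1 to 54.9) and 48.1% (38.4 to 58.0). Cd83 was at 873, 908 and 692 and Cd80 at 145, 160 and 121. Of 12 chemotactic receptors 7 were compared and 0 were past 2-fold, with medians of -0.06 and -0.03. Ccr2 was at 821, 708 and 625, Ccr1 at 483, 504 and 495, and Gpr183, the oxysterol receptor that places dendritic cells in tissue, at 452, 621 and 544. With so few genes compared, 0 past 2-fold is close to what the 7.49% and 8.59% over all genes would give.

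Of the genes that respond to interferon and to p53, few met the minimum level in cDC2 cells, though their summed levels were above those of all other cells in each library. The interferon list summed to 753, 633 and 670 adjusted CPM against 536, 607 and 548 in all other cells, and the p53 list to 2670, 2977 and 2727 against 1901, 1902 and 1907. Of 20 interferon-stimulated genes only Bst2 met the minimum level, at 358, 318 and 482 adjusted CPM, and it was above 0 in 100% of the cells with pDC genes but 19.7% of the remaining ones. Bst2 was thus a large part of the interferon sum, and its median was 18 adjusted counts per cell with pDC genes and 0 in the remaining cells. Whether the interferon sum stays above that of all other cells without the cells with pDC genes was not tested. Isg15 was above 0 in 2, 6 and 3 cells. Of 20 p53 targets 5 were compared and 0 were past 2-fold, with medians of -0.06 and 0.07, beside 7.49% and 8.59% of all genes. Cdkn1a, which encodes the cell cycle inhibitor p21, was at 265, 339 and 226 and above 0 in 34.1% (20.5 to 49.9), 45.1% (37.4 to 53.1) and 25.9% (18.0 to 35.2). Pmaip1 (NOXA) was at 587, 365 and 438 and Bax at 93.5, 97.9 and 88.9, while Phlda3, Eda2r and Fas were listed at 0 in every member. Cdkn1a, Pmaip1 and Bax are only part of the p53 sum, and which genes carry the rest was not tested.

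Immediate early genes, which cells also switch on while tissue is being dissociated, were read next. Of 20 genes, 17 were compared. Against CONV AsiDNA 0 were past 2-fold higher in CONV and 1 lower, against FLASH 0 and 3, and 16 and 14 of the 17 had ratios below 0, with medians of -0.54 and -0.46. Over all genes compared, 4.95% and 4.73% were past 2-fold lower in CONV, and 51.9% and 51.5% had ratios below 0. Fos was at 852, 1504 and 1781 adjusted CPM and above 0 in 45.5% (30.4 to 61.2), 72.0% (64.4 to 78.7) and 74.1% (64.8 to 82.0). Ier2 was at 260, 485 and 583 and Atf3 at 597, 1048 and 1100. Nr4a1 (1091, 1211 and 935) and the heat shock gene Hspa8 (1319, 1509 and 1325) were close to level. Over all other cells Fos had ratios of 0.08 and 0.12. In cDC1 cells the direction was that of cDC2, with ratios of -0.43 and -0.51 for Fos, -2.01 and -2.27 for Ier2 and -1.38 and -0.95 for Atf3.

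Cell cycle genes were below 0 in the median as well, at -0.64 and -0.61, with 11 of 16 compared, 0 past 2-fold higher in CONV and 1 lower in each comparison, close to the 4.95% and 4.73% of all genes compared. Mki67 was at 161, 277 and 278 adjusted CPM and above 0 in 11.4% (3.79 to 24.6), 15.9% (10.6 to 22.4) and 14.8% (8.71 to 22.9). Stmn1, the gene past 2-fold, was at 104, 237 and 247. Pcna, the sliding clamp of replication, went the other way, at 145, 92.2 and 71.6. CONV held 3 dividing cells, and without the dividing cells of all libraries the medians were 0.04 and 0.00. The genes that set the dividing cells apart are all in this list. Leaving those cells out thus changes the list by construction, and these 2 medians are a description only. The median against CONV AsiDNA was -0.05 with Epcam not used, and that against FLASH was -1.28 with 3 or more markers required. Of 14 genes of lipid handling 3 were compared. Lgals3 (galectin 3) was at 836, 596 and 711, Cd9, a tetraspanin, at 5.19, 157 and 106, and Cd36 was above 0 in 2, 3 and 0 cells, while Gpnmb, Trem2, Fabp5 and Apoe were listed at 0 in every member.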

How the data were processed

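Lungs of 3 irradiated mice, 1 per condition, were dissociated and captured with the 10x Genomics 3′ chemistry. The submitters' processing notes name Cell Ranger 6.0.0 and mm10, and the paper names R and Seurat; the sources used here do not give the adjustment or the filters on cells. In the tables that the authors deposited, each of 22954 genes has per cell a natural log, taken after 1 was added to a whole number. The plan had assumed raw UMI counts. Each value was converted back and lay within 1e-06 of a whole number (adjusted count), and no count model was used, no p-value was computed and genes listed at 0 were given no limit. The series has 4 more tables; their 12 columns of per-sample values were not used.

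Cells of the rule were summed per library and scaled to 1000000. Genes were compared at a mean of at least 50 adjusted CPM and above 0 in at least 5 members, with 10 added before the log2 ratio, and 2-fold as the limit. Named genes were above 0 in at least 5 cells of every library and in at least 20% of the cells of the highest, and were ranked by the smaller ratio to both other libraries, the first 10 each way for CONV and the first 6 for the others. Genes listed at 0 in a library and above 0 in at least 25% in another were named with no fold. Gm42418, AY036118 and mitochondrial, immunoglobulin and haemoglobin genes were given apart. Members of the 13 gene lists and 13 marker lists complete the names; Fth1, Ftl1 and Lamp2, the split into groups of members and the 5% and 20% limits were chosen after the values were seen. The members and the lists were chosen with earlier results of these data known. Depth per cell limits the shares, which were also computed with each cell thinned to 1000 adjusted counts. No doublet caller was run. Barcodes shared by pairs of libraries numbered 16, 9 and 17 among all cells. Alternatives changed the markers needed, the C1q condition, the denominator, the prior (1 and 50), the minimum level (10, 200 and none), the scaling, the filter on cells and which cells were kept (without the 6% that had the most genes). Those on Epcam, pDC genes and division genes were added after the data were seen. Positions are from the GENCODE annotation of GRCm38 (mm10). The ranking was also run on simulated sums drawn from a pooled mean per gene, with set changes. These sums lack the adjustment of the deposited values and patterns such as that of Fth1, so the run cannot bear on them. Python 3.11.15, numpy 2.4.6, scipy 1.17.1, pandas 2.3.3 and matplotlib 3.10.9 were used. Values of 1 list member are not reported here.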

Additional observations from a re-analysis of the deposited data

How the results depend on the processing

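The CONV share stayed the lowest under all 12 alternatives of the rule. With 3 or more markers required, the shares were 1.89% for CONV AsiDNA and 1.39% for FLASH. With no condition on C1q genes they were 2.56%, 5.01% and 3.59% for CONV, CONV AsiDNA and FLASH, and among cells with Ptprc above 0 they were 0.948%, 3.31% and 2.46%. With Epcam not used they were 2.81% for CONV AsiDNA and 2.30% for FLASH. The counts of genes past 2-fold depended on the level: for CONV against CONV AsiDNA, CONV against FLASH and CONV AsiDNA against FLASH they were 72, 89 and 27 with a prior of 50, 771, 901 and 302 at a minimum of 10 adjusted CPM, 30, 37 and 13 at a minimum of 200, and 1009, 1279 and 416 with no minimum. At a minimum of 200 more genes were higher than lower in CONV against FLASH, 21 and 16. With 3 or more markers required, CONV AsiDNA against FLASH split into 51 higher and 17 lower, and without the cells with pDC genes into 47 and 15, beside 39 and 28. The named genes that were ranked kept their sign under the other settings run on their ratios, which left out the genes named as listed at 0. Some alternatives of the rule were run on shares only. With a prior of 50 past 2-fold were 4 of the 10 above and 5 of the 10 below in CONV, 2 of the 3 above and 1 of the 6 below in CONV AsiDNA and 2 of the 6 below in FLASH. With Epcam not used, Dusp2, Nsrp1 and 5430427O19Rik of those above in CONV, Hepacam2, Dnajb11 and Smc4 of those below, and Id2 and Pkp3 of those below in CONV AsiDNA were not past it. With the ratio over all other cells subtracted, Cirbp and Nsrp1 of the 10 above and Pik3cd, Pou2f2, Hepacam2 and Bod1l of the 10 below were no longer past 2-fold, nor were 5 of the 6 below in CONV AsiDNA and Rpl9-ps6 of the 6 below in FLASH. Without the cells with pDC genes, Nsrp1, 5430427O19Rik, H2-Q7 and Pkp3 were not past 2-fold. Elovl5 and Pkp3 were not past it without dividing cells, and Nsrp1 and Pkp3 were not with 3 or more markers required. Of the ratios of named genes, 1008 stayed close to the value given and 42 moved; of the medians of lists, 324 and 6. The 4 that moved for cell cycle genes were -0.05 against CONV AsiDNA with Epcam not used, 0.04 against CONV AsiDNA and 0 against FLASH without dividing cells, and -1.28 against FLASH with 3 or more markers; the others were 1.66 for cytokines and chemokines with 3 or more markers and -1.21 for the lysosome with the ratio over all other cells subtracted, both against FLASH. The cause of these changes was not tested. No paired analysis was possible because each condition had 1 library, and for the same reason no library could be left out. CONV had 44 cells, of which 1 cell is 2.27%, so shares of CONV are the least precise.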

Other observations

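Within the 259 members that had neither pDC nor division genes, cells above 0 for Ccr2 and cells at 0 had different shares of some other genes. For Itgam the shares were 75.0% and 42.9% in CONV, 77.7% and 65% in CONV AsiDNA and 72.5% and 72.3% in FLASH, with overlapping intervals in each. These splits were chosen after the values were seen, and they are a description. Ccl9, a chemokine of CCR1, was above 0 in 79.2% of the CONV cells with Ccr2 and 35.7% of those without, in 77.7% and 62.5% in CONV AsiDNA and in 60.0% and 31.9% in FLASH; the 95% intervals overlapped in each library. H2-Oa went the other way, at 75.0% with and 100% without Ccr2 in CONV, 53.2% and 80.0% in CONV AsiDNA and 50.0% and 85.1% in FLASH, where only the CONV intervals overlapped. Itgae did so too, at 16.7% and 42.9%, 3.19% and 12.5%, and 7.50% and 27.7%, with overlapping intervals in all 3 libraries. The mannose receptor gene Mrc1 was above 0 in 44.7% of the CONV AsiDNA cells with Ccr2 and 10.0% of those without, and in at most 1 cell of either kind in CONV and FLASH.

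Itgax (CD11c) was above 0 more often in cells above 0 for Ccl17 than in the others, at 62.5% against 21.4% in CONV, 82.2% against 57.4% in CONV AsiDNA and 79.1% against 60.0% in FLASH, and Ifitm6 less often, at 33.3% against 64.3%, 8.22% against 29.5% and 20.9% against 30.0%. For both genes the intervals overlapped in CONV and FLASH and lay apart in CONV AsiDNA. Cells above 0 for Il1b had more Nr4a1, an early gene of receptor signalling, at 88.0% against 53.8%, 95.3% against 55.6% and 93.4% against 57.7%. They also had more Cd83, at 96.0% against 69.2%, 92.5% against 59.3% and 96.7% against 73.1%, and for both genes the intervals overlapped in CONV only. Jun was above 0 in fewer of them, at 20.0% against 46.2%, 51.4% against 74.1% and 37.7% against 69.2%, with overlapping intervals in each library.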
